A study of Mus musculus with 5 samples.

Results

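The numbered zinc finger genes are the genes whose mouse symbol is Zfp followed by a number. They were selected on their symbol and on their level, as the rows with a mean of at least 1 CPM (UMIs scaled to a common library total) over the 5 libraries, leaving out Zfp36, Zfp36l1, Zfp36l2 and Zfp36l3. Of 24419 rows in the deposited table, 368 had such a symbol, 364 were left without those 4, and 235 passed the level and are the members described here. The other 129 were under 1 CPM, 56 of them with 0 UMIs in every library and 73 with a few. The libraries came from bone marrow-derived macrophages (BMMs) of C57BL/6 mice, grown for 5 days with M-CSF at 50 ng/ml and activated with LPS at 100 ng/ml. The 2 control samples then received PBS (their titles say no treatment) and the 3 others recombinant Sema3G at 100 ng/ml, for 18 h in both groups. Sema3G is a secreted semaphorin whose receptor, neuropilin-2, is found on activated macrophages, and the comparison asks what it changes in cells that have already met LPS. The labels do not say whether the samples of a group were separate cultures or mice, so p-values measure the spread between these samples, which may be technical.

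A C2H2 zinc finger is a short fold in which a pair of cysteines and a pair of histidines hold a zinc ion, and arrays of such fingers read DNA sequence. Many of these proteins also carry a KRAB domain, which recruits the corepressor Trim28 and, through it, the histone methyltransferase Setdb1 and HP1 proteins, a pathway best known for silencing endogenous retroviruses. Other numbered zinc finger proteins bind RNA, take part in ribosome quality control or work as ordinary transcription factors. The numbers follow the naming of the genes and not their kinship. The genes arose largely by tandem duplication, and many lie in clusters.

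The fingers and the KRAB core below were read from the coding sequence of GRCm38 for the member with the highest level, the 2 members called with Sema3G, a member near the limit and the KRAB member with the highest level. In the fingers, capitals mark the codons of the zinc-binding cysteines and histidines, and in the KRAB core the codons of the residues that the search fixed. Each finger is the first match in its protein that lies within 1 exon.
Zfp292 finger, chr4:34811291-34811353, minus strand: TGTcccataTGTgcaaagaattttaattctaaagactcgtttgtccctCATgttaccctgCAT
Zfp106 finger, chr2:120539408-120539476, minus strand: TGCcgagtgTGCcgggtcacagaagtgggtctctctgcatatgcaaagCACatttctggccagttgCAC
Zfp553 finger, chr7:127235527-127235589, plus strand: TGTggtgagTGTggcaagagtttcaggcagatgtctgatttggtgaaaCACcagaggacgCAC
Zfp609 finger, chr9:65704120-65704191, minus strand: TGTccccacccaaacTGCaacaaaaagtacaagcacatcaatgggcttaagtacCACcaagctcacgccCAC
Zfp871 finger, chr17:32775555-32775617, minus strand: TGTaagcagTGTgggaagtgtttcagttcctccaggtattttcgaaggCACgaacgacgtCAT
Zfp871 KRAB-A core, chr17:32777432-32777479, minus strand: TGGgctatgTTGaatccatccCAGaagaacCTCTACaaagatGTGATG

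The fingers of Zfp292, Zfp553 and Zfp871 span 63 bases, the spacing of the classical DNA-binding finger, while those shown for Zfp106 and Zfp609 span 69 and 72 bases. The proteins differ more in the number of fingers. Zfp871 had 15 matches in 615 residues and Zfp553 had 12 in 591, whereas Zfp106 had 3 in 1888 residues and Zfp609 a single match in 1413. Zfp292, with 2698 residues, had 14.

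A gene model was found for all 235 members and a protein for 233. The KRAB core was found together with C2H2 fingers in 97 members, which had 2 to 27 fingers with a median of 12. The 131 members with fingers in which no KRAB core was found had 1 to 36 fingers with a median of 8. Over 22527 mouse proteins the KRAB core was found in 1.22% and a C2H2 finger in 3.58%. The search is narrow. Zfp568 and Zfp445, known as KRAB proteins, were not matched and stand among the 131. Chromosome 7 held 55 members, chromosome 17 held 33 and chromosome 13 held 20. Another numbered zinc finger gene started within 100 kb of 76 of the 97 KRAB members and of 53 of the 131 others with fingers.

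The members were rare RNAs. Since each UMI stands for one RNA 3′ end, CPM values were not divided by transcript length when levels of different genes were set side by side. The mean level ranged from 1.02 to 172.6 CPM with a median of 5.68, against 16.9 CPM for all genes tested, and 110 members lay below 5 CPM, 95 between 5 and 20, and 30 at 20 CPM or over. KRAB members had a median of 3.40 CPM, and those with fingers and no KRAB core found had 7.84. Of the rows of each class in the table, 64.7% and 67.5% were members. In all, 214 members had UMIs in every library, and the median member had 55 UMIs over the 5 libraries. At the limit of 1 CPM, Zfp947, Zfp759 and Zfp951 lay just inside at 1.02, 1.04 and 1.06 CPM, and Zfp526, Zfp85 and Zfp58 just outside at 0.991, 0.967 and 0.953. The mean was at least 1 CPM in both groups for 218 members, under 1 CPM with Sema3G for 8 and under 1 CPM with PBS for 9.

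**Figure D1:**
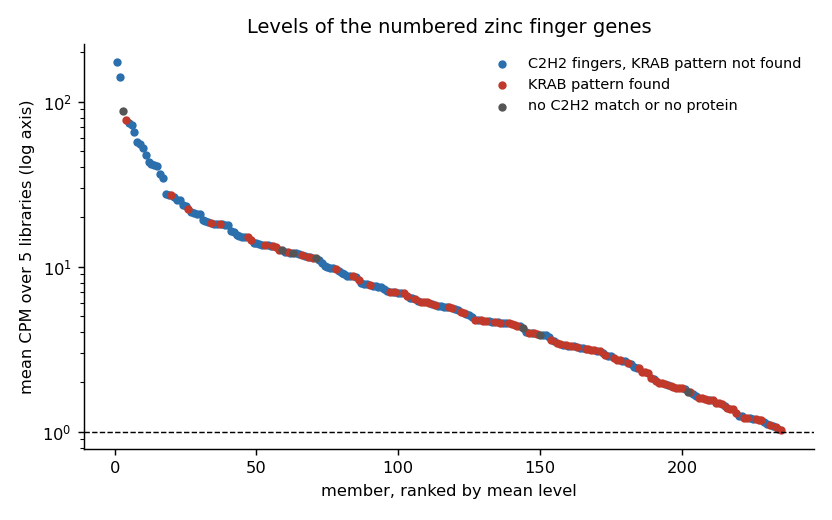
Mean CPM over the 5 libraries (vertical log axis) for each of the 235 members, ranked from high to low (horizontal axis); points are coloured by what was found in the protein and the dashed line marks 1 CPM. The first 30 members lie at 20 CPM or over, and Zfp871, at 77.3 CPM, is the highest of those with a KRAB core found.

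Zfp292, a large protein with fingers spread along its length, had the highest level. It was listed at 126.9 and 141.9 CPM with PBS and at 182.4, 195.0 and 217.1 CPM with Sema3G, above Zfp106 in each of the 5 libraries. The levels that follow were close together. Zfp703, a corepressor of the Noc family, stood at 82.1 ± 4.24 CPM (SD, n = 2) in the controls and at 91.9 ± 9.09 (SD, n = 3) after Sema3G, Zfp871 at 70.1 ± 11.4 and 82.1 ± 20.1, and Zfp263 at 82.4 ± 5.39 and 66.0 ± 11.6. Zfp207, which loads the checkpoint protein Bub3 on chromosomes, stood at 84.7 ± 6.92 and 67.9 ± 2.34 CPM. The order of these 4 changed from library to library. Zfp516, a factor of brown fat genes, had 65.0 ± 2.64 and 65.5 ± 4.71 CPM, the closest match between groups among the 10 highest members. Zfp91, a ubiquitin ligase of the non-canonical NF-kB pathway, had 45.0 ± 1.47 and 64.6 ± 14.1 CPM, and it overlaps Cntf on the same strand, so its counts are uncertain. Zfp706 and Zfp445, the latter a keeper of genomic imprints, were at 73.0 ± 5.56 and 47.7 ± 6.03 CPM with PBS and at 43.8 ± 7.88 and 55.7 ± 12.4 CPM with Sema3G. Zfp706 had a log2 fold change of -0.74 (limma adjusted p = 0.0883, and 0.0312 without Sema3G replicate 1, where 440 of all 10088 genes were called lower). Of these 10 members all 3 Sema3G libraries lay above both PBS libraries for 4, below for 2, and the groups overlapped for 4. Over the 4592 genes at 20 CPM or over, the groups lay apart upwards for 13.4% and downwards for 36.2%.

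The recovered library totals were 1798469 to 2215855 UMIs, of which 65.9% to 77.6% fell on listed genes. That share was lower in each Sema3G library than in both with PBS, and the ribosomal RNA precursor Rn45s accounted for 1.01% and 3.19% of all UMIs in the controls and for 6.31% to 7.88% after Sema3G. Both enter the CPM, and the median log2 fold change of all 10088 genes tested was -0.22, or -0.037 after scaling by TMM factors, so changes are also given relative to that median. Their part in the results on members was not tested. The macrophage markers Csf1r, Lyz2, Adgre1 and Cd14 were high, and the 8 macrophage markers summed to 9761 to 12570 CPM with PBS and 8860 to 9518 with Sema3G. Mertk, also among the 8, was close to absent, with 2 and 0 UMIs in the controls and 5, 4 and 5 after Sema3G. Defining markers of other cells were at 0 in every library for 3 of 5 T cell genes, 3 of 4 B cell genes, all 3 NK cell genes, 3 of 4 dendritic cell genes, 3 of 4 mast cell and basophil genes and all 4 erythroid genes. Neutrophil markers, mostly S100a8, summed to 116.5 to 169.2 CPM with PBS and 103.4 to 132.7 with Sema3G, with 2 of 6 at 0, and 5 stromal markers to 20.3 to 50.0 and 16.7 to 36.1. In bulk samples fewer cells of a type and less RNA per cell cannot be told apart.

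As a share of UMIs on listed genes, the members together held 0.349% and 0.364% with PBS and 0.375%, 0.416% and 0.420% with Sema3G, so that the groups did not overlap. On the CPM scale they did overlap. The summed level of the members was 2706 and 2751 CPM with PBS and 2672, 2792 and 2769 CPM with Sema3G. The 2 scales differ by the share of UMIs on listed genes described above. The highest members, Zfp292 and Zfp106, weigh on these sums. Their means were 134.4 and 93.1 CPM with PBS and 198.2 and 171.2 CPM with Sema3G. Whether the groups lie apart without them was not tested. The number of members detected was 229 and 230 with PBS and 231 or 232 with Sema3G.

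With Sema3G, 2 of the 235 members rose and 0 fell at an adjusted p below 0.05 (limma on log2(CPM + 1), fitted over all 10088 genes). The members that rose were Zfp106 and Zfp553. Among all genes tested 1.59% were called higher and 0.218% lower, while 0.851% of members were called higher. With 2 calls, 1 of them partly fixed by the level limit (Zfp553, as described with its values), nothing is read from the difference. At an unadjusted p under 0.05, 14 members were higher and 17 lower, against 689 and 1436 of all 10088 genes. After scaling by TMM factors limma called 6 members higher, against 3.21% of all genes, and 0 lower, against 0.0297%. On the recovered UMI counts, edgeR's quasi-likelihood test gave 6 higher and 0 lower, against 2.98% and 0.0297% of all genes. The 6 were the same with TMM scaling and in edgeR, namely Zfp106, Zfp553, Zfp609, Zfp638, Zfp131 and Zfp292.

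Zfp106 is an RNA-binding zinc finger protein known for its need in motor neurons. It had 180 and 163 UMIs in the controls and 274, 387 and 405 after Sema3G. Every Sema3G library was above both controls, at 152.4 to 186.7 CPM against 98.9 and 87.3. The mean rose from 93.1 ± 8.23 CPM (SD, n = 2) to 171.2 ± 17.4 CPM (SD, n = 3), a log2 fold change of 0.87 with a standard error of 0.19 (limma adjusted p = 0.0232). The ratio of summed counts per library total was 1.85 (95% exact interval 1.64 to 2.10, counting error only). The call was lost when PBS replicate 2 was left out (log2 fold change 0.78, limma adjusted p = 0.0750). It was also lost when Sema3G replicate 2 (0.85, limma adjusted p = 0.193) or replicate 3 (0.81, limma adjusted p = 0.166) was left out. Zfp106 (ENSMUSG00000027288.16) lies on the minus strand at chr2:120506820-120563843 of GRCm38. The long non-coding RNA gene Gm26899 overlaps it on the other strand, and how strand was handled in the counting was not stated. Counts are also uncertain for Zfp318, Zfp346, Zfp410, Zfp516, Zfp608, Zfp703 and Zfp704, which other annotated genes overlap on the other strand, and for Zfp445 and Zfp809, which others overlap on the same strand.

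Zfp553, a protein with an array of 12 fingers, was scarcely detected with PBS. It is among the 9 members with a PBS mean under 1 CPM, so it passed the level limit only through the Sema3G libraries, and its difference is partly fixed by that limit. The controls held 2 and 0 UMIs of it, and the samples given Sema3G 13, 13 and 11. A count of 0 in PBS replicate 2 allows up to 1.61 CPM, and the lowest Sema3G library stood at 5.07 CPM. The log2 fold change was 2.27 with a standard error of 0.49 (limma adjusted p = 0.0251). The ratio of the summed counts, 2 against 37, per library total was 11.03 with a 95% exact interval of 2.85 to 94.5. This call too was lost when PBS replicate 2 (log2 fold change 1.74, limma adjusted p = 0.0878), Sema3G replicate 2 (2.29, limma adjusted p = 0.121) or Sema3G replicate 3 (2.38, limma adjusted p = 0.112) was left out, and with a pseudocount of 0.1 (4.14, adjusted p = 0.0521). The size of a log2 change in a gene this rare depends on that constant. DESeq2 gave no adjusted p for it. Zfp553 (ENSMUSG00000045598.10) lies on the plus strand at chr7:127233061-127238179, and Sept1 on the other strand overlaps its first bases.

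**Figure D2:**
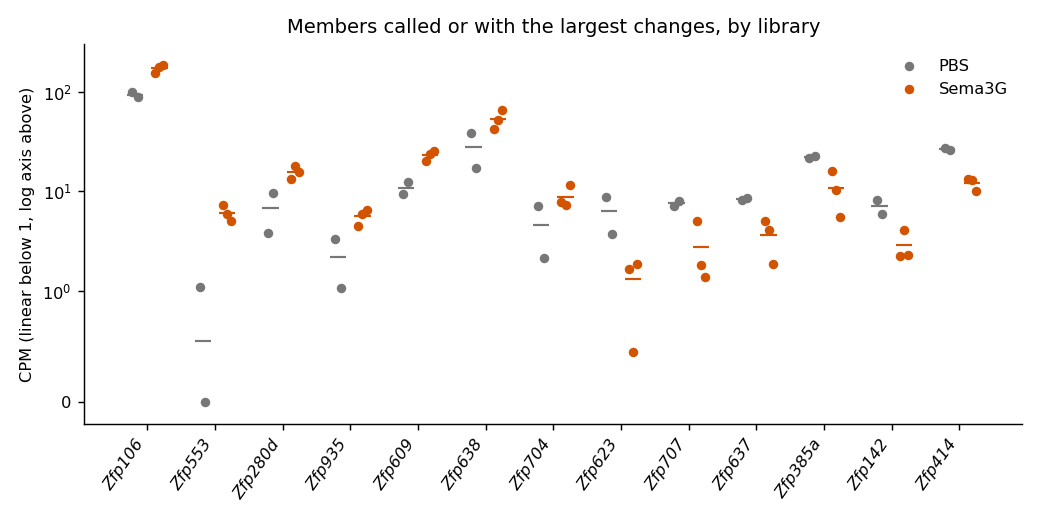
CPM of each library (points, with a bar at the group mean) for the 2 members called and for the members with 30 UMIs or more and the largest changes among those with groups that do not overlap; the vertical axis is linear below 1 CPM and logarithmic above. For Zfp106 the Sema3G points lie at 152.4 to 186.7 CPM and the PBS points at 98.9 and 87.3 CPM.

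The other members with the largest positive values among those with 30 UMIs or more and groups apart did not pass the limit. Zfp609, which binds the cohesin loader Nipbl, had 17 and 23 UMIs in the controls and 36, 53 and 55 after Sema3G, a change of 1.03 on the log2 scale (SE 0.28, limma adjusted p = 0.0688). Zfp638, a nuclear RNA- and DNA-binding protein that silences unintegrated retroviral DNA with the HUSH complex, had 70 and 32 against 75, 114 and 141 UMIs (0.98, SE 0.29, adjusted p = 0.0883). In both, the controls lay below every Sema3G library, although PBS replicate 1 of Zfp638, at 38.5 CPM, was close to Sema3G replicate 1 at 41.7 CPM. Both passed after TMM scaling, with limma adjusted p = 0.0264 for Zfp609 and 0.0332 for Zfp638. Zfp280d had 7 and 18 against 24, 40 and 34 UMIs, with a log2 fold change of 1.21 (limma adjusted p = 0.0925). Zfp704 had 13 and 4 against 14, 16 and 25 UMIs (0.94, adjusted p = 0.227), and its lowest Sema3G library, at 7.22 CPM, barely cleared PBS replicate 1 at 7.14. Zfp935, in whose protein no finger was matched, had 6 and 2 against 8, 13 and 14 UMIs (1.13, adjusted p = 0.179), but it overlaps Zfp934 on the same strand and the counts of the 2 are uncertain. Zfp292 and Zfp131 (a BTB protein named after its values were seen) had log2 fold changes of 0.56 and 0.82 with limma adjusted p = 0.116 and 0.0935. After TMM scaling both had a limma adjusted p of 0.0303. These values moved with single controls. Zfp638 had a log2 fold change of 1.54 (limma adjusted p = 0.00800) without PBS replicate 1 and of 0.42 (0.369) without PBS replicate 2. Zfp280d had 0.64 (limma adjusted p = 0.426) and 1.77 (0.0187) in the same 2 fits, Zfp704 had 1.62 and 0.25, and Zfp935 had 1.66 and 0.60. Without Sema3G replicate 1, Zfp609 and Zfp292 passed (limma adjusted p = 0.0419 and 0.0475), while without PBS replicate 1 Zfp609 had 0.85 (limma adjusted p = 0.225). Transcripts or pseudogenes with no row of their own overlap Zfp638, Zfp280d, Zfp131 and Zfp292, as they do Zfp326 and Zfp706, so the counts of these genes are uncertain.

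Of the members with the largest negative values among those with 30 UMIs or more and groups apart, none passed the limit. Zfp623 and Zfp707 are neighbours on chromosome 15, and Zfp707 carries a KRAB domain. Zfp623 had 16 and 7 UMIs in the controls and 3, 1 and 4 after Sema3G, a change of -1.62 on the log2 scale (SE 0.52, limma adjusted p = 0.111). Zfp707 had 13 and 15 against 9, 4 and 3 UMIs (-1.32, adjusted p = 0.138). Zfp385a, a partner of p53 that also binds RNA, had 39 and 42 against 29, 23 and 12 UMIs (-1.08, adjusted p = 0.120). Its Sema3G libraries were spread widely, from 5.53 to 16.1 CPM. Zfp414 had close values within each group, at 26.9 and 25.7 CPM with PBS and 13.3, 13.1 and 10.1 CPM with Sema3G (-1.06, SE 0.28, adjusted p = 0.0632). Zfp637 and Zfp142 had log2 fold changes of -1.09 and -1.08 with limma adjusted p = 0.169 and 0.176. The groups of these 6 lay apart by the way they were chosen. Without Sema3G replicate 1, limma called Zfp414 (log2 fold change -1.12, adjusted p = 0.0387), Zfp385a (-1.41, adjusted p = 0.0367) and Zfp707 (-1.73, adjusted p = 0.0419) lower. That fit called 440 of all 10088 genes lower, against 22 with all libraries. Without Sema3G replicate 3, Zfp414, Zfp385a and Zfp707 had -0.94, -0.72 and -1.06 (limma adjusted p = 0.284, 0.438 and 0.438). Zfp623 had -1.09 (limma adjusted p = 0.451) without PBS replicate 1 and -2.14 (0.0803) without PBS replicate 2. Plcd4 overlaps Zfp142 on the other strand and Gm20507 overlaps Zfp414 on the same strand, so the counts of both are uncertain.

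Over the members as a whole the values shifted little against other genes. Their median log2 fold change was -0.17, which is 0.052 above the median of all genes, and their quartiles were -0.44 and 0.23 against -0.47 and 0.12 for all genes. All 3 Sema3G libraries lay above both PBS libraries for 38 members (16.2%), against 11.9% of all genes, and below for 45 members (19.1%), against 26.5%. With TMM scaling the order of the 2 counts turned, to 45 members higher (19.1%, against 17.4% of all genes) and 29 lower (12.3%, against 15.7%). Of the 38 members, 8 had a PBS mean under 1 CPM, and of the 45 members 2 had a Sema3G mean under 1 CPM. These entered only through the group where they are high, so their direction is partly fixed by the level limit. The precision differed with depth. The median standard error of the log2 fold change was 0.29 for members with 100 UMIs or more and 0.55 for those with fewer than 30.

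**Figure D3:**
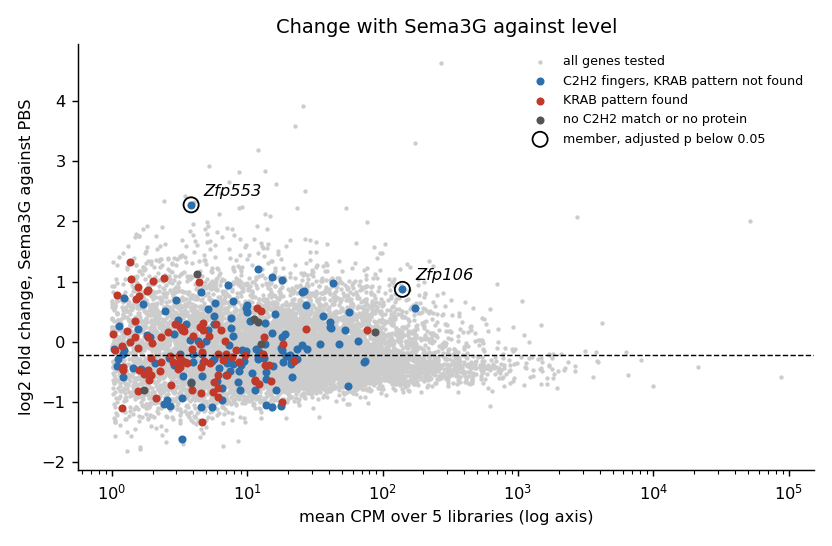
Log2 fold change of Sema3G against PBS (vertical axis, on log2(CPM + 1)) against mean CPM (horizontal log axis) for all 10088 genes tested (grey) and for the members, coloured by what was found in the protein; the dashed line is the all-gene median of -0.22. Zfp106 and Zfp553, circled, are the members with an adjusted p below 0.05.

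KRAB members and the other members with fingers were set side by side as a description. Of the 97 KRAB members 0 were called, 1 was higher and 4 were lower at an unadjusted p under 0.05 in limma, and neither edgeR nor DESeq2 called any. With 1 library left out, limma called Zfp955b higher when PBS replicate 2 was dropped (a change of 2.48 on the log2 scale, adjusted p = 0.0401). It called Zfp617 (-1.27, adjusted p = 0.0310) and Zfp707 (-1.73, adjusted p = 0.0419) lower without Sema3G replicate 1. In that fit 440 of all 10088 genes were called lower. Zfp955b and Zfp617 were named after their values were seen, and the counts of Zfp617, which overlaps Zfp882 on the same strand, and of Zfp955b, which overlaps a pseudogene, are uncertain. The groups of the 97 KRAB members lay apart upwards for 9 (9.28%) and downwards for 17 (17.5%), and their median log2 fold change was -0.20. Of these, 6 of the 9 had a PBS mean under 1 CPM and 2 of the 17 a Sema3G mean under 1 CPM, and so entered only through the higher group. Of the 131 members with fingers and no KRAB core found, 2 were called higher, against 1.59% of all genes, and the groups lay apart upwards for 27 (20.6%) and downwards for 28 (21.4%), with a median of -0.16. Here 2 of the 27, among them Zfp553, had a PBS mean under 1 CPM, and 0 of the 28 had a Sema3G mean under 1 CPM. The shares of all genes were 11.9% upwards and 26.5% downwards, and 689 and 1436 of all 10088 genes passed an unadjusted p of 0.05 upwards and downwards. With TMM scaling the counts were 12 (12.4%) and 9 (9.28%) for KRAB members and 30 (22.9%) and 20 (15.3%) for the others, against 17.4% and 15.7% of all genes. KRAB members were also rarer, and the difference between the classes was not tested.

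The members were also split by position. The 132 members with another numbered zinc finger gene starting within 100 kb lay apart upwards for 14 (10.6%) and downwards for 29 (22.0%), with a median log2 fold change of -0.26. The 103 members without such a neighbour lay apart upwards for 24 (23.3%) and downwards for 16 (15.5%), with a median of -0.041. The all-gene shares were 11.9% and 26.5%. Of the 14 and the 24 members apart upwards, 6 and 2 had a PBS mean under 1 CPM. Of the 29 and the 16 apart downwards, 2 and 0 had a Sema3G mean under 1 CPM. With TMM scaling the counts were 16 (12.1%) and 20 (15.2%) against 29 (28.2%) and 9 (8.74%), with 17.4% and 15.7% for all genes. Of all members 54.0% lay above the all-gene median. Over the 8 chromosomes with 10 members or more this share ranged from 30.8% of 13 members on chromosome 6 to 81.8% of 33 on chromosome 17, and it was 35.3% to 60.0% on the other 6. No test was made of these differences.

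By level, a larger share of the 30 members at 20 CPM or over than of all genes at that level lay apart upwards. The groups of these 30 lay apart upwards for 10 (33.3%) and downwards for 5 (16.7%), and their median log2 fold change was 0.082. Over the 4592 genes at 20 CPM or over, the same shares were 13.4% and 36.2%, and the median was -0.26. With TMM scaling 11 of the 30 lay apart upwards and 3 downwards, and the shares of the 4592 genes were 20.1% and 20.8%. Members at 5 to 20 CPM lay apart upwards for 13 of 95 and downwards for 24, and those below 5 CPM for 15 and 16 of 110. These are 13.7% and 25.3%, against 10.2% and 22.3% of all genes at that level, and 13.6% and 14.5%, against 11.2% and 12.8%. Below 5 CPM, 8 of the 15 and 2 of the 16 had a mean under 1 CPM in the lower group and entered only through the other. With TMM scaling the order of the counts turned in both classes, to 17 upwards and 16 downwards at 5 to 20 CPM (15.8% and 12.9% of all genes there) and 17 and 10 below 5 CPM (14.3% and 9.24%). The difference was not tested, and it was read after the levels were known.

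**Figure D4:**
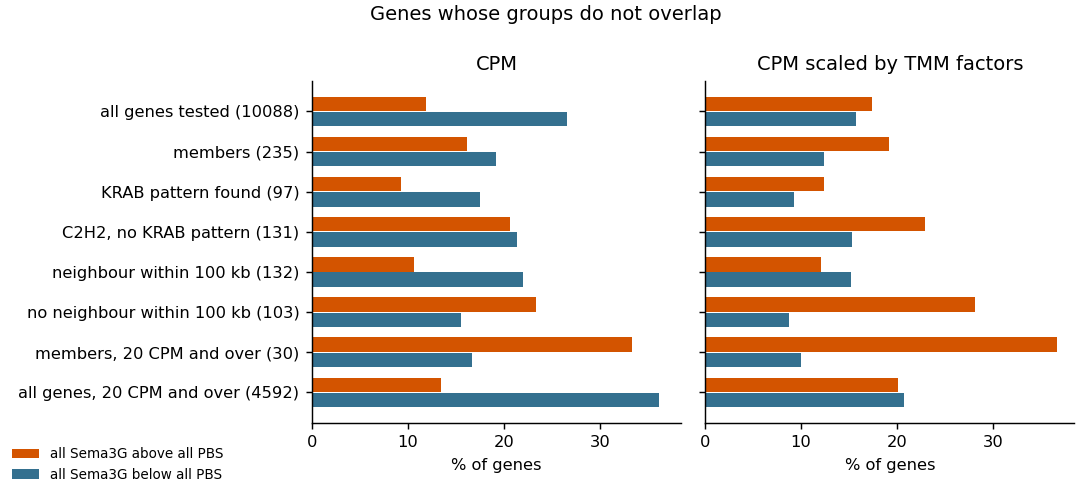
Percent of genes whose 3 Sema3G libraries all lie above (orange) or all below (blue) both PBS libraries, for all genes, all members and classes of members (number of genes in brackets), with CPM at left and CPM scaled by TMM factors at right. Members at 20 CPM or over reach 33.3% upwards on the CPM scale, against 13.4% of all genes at that level.

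Transcript composition moved with these values. Of the 233 members with a transcript, 130 had a GC content of up to 47.3%, 48 lay between that and 53.5%, and 55 above. These limits split all genes into 3 classes of nearly equal size. Relative to the all-gene median, the median change of members was 0.14, 0.0086 and -0.12 from the lowest to the highest class, and that of all genes 0.21, -0.0089 and -0.14. Members whose groups lay apart upwards had a median GC content of 41.8% and a median transcript length of 3957 nt, and those apart downwards 50.2% and 2712 nt. By length, members in the class of the longest transcripts had a median of 0.23 relative to all genes, and those in the class of the shortest -0.051, against 0.18 and -0.12 for all genes in these classes. In the lowest GC class 26 of 130 members lay apart upwards, against 21.5% of all genes there. In the middle class it was 12.5% against 9.97%, and in the highest 10.9% against 3.76%. Of the 38 members apart upwards over these classes, 8 had a PBS mean under 1 CPM, among them Zfp553 in the highest class. They passed the level limit only through the Sema3G libraries. These upward shares and the median GC content above are therefore partly fixed by that limit. The part of composition and length in the members' values was not tested.

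**Figure D5:**
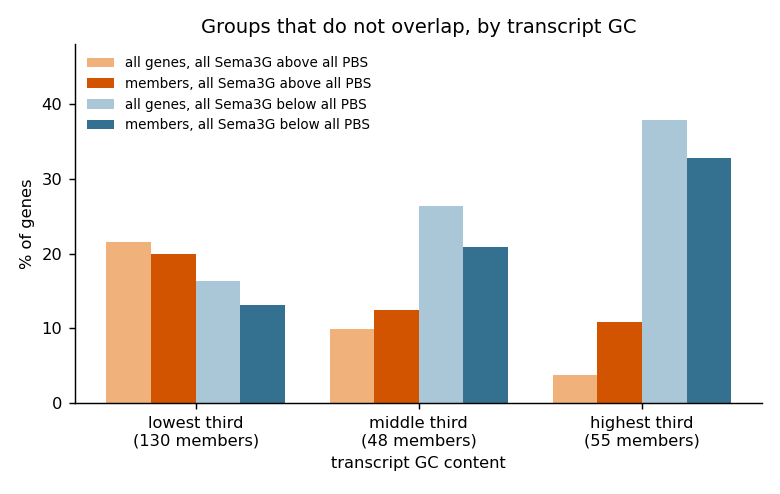
Percent of genes whose groups do not overlap (vertical axis), upwards in orange and downwards in blue, for all genes (light) and members (dark) in 3 classes of transcript GC content (horizontal axis). In the lowest class 26 of 130 members and 21.5% of all genes lie apart upwards, and in the highest 32.7% of members and 37.8% of all genes lie apart downwards.

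Of 39 numbered zinc finger genes listed for a known role, 34 were members, and 1 of them, Zfp106, was called higher, against 1.59% of all genes. The groups lay apart upwards for 10 and downwards for 6, against 11.9% and 26.5% of all genes, and the median log2 fold change was 0.14, against -0.22. Transcription factors that bind promoters and their corepressors come first. Zfp143 had 23 and 26 UMIs in the controls and 17, 30 and 23 after Sema3G, and the GC-box factor Zfp281 had 49 and 46 against 34, 63 and 61. Its relative Zfp148 had 69 and 70 against 82, 94 and 98 UMIs, and the corepressor Zfp217 had 53 and 84 against 64, 103 and 106. Of these 4, only Zfp148 had groups that did not overlap. Zfp410, known as an activator of Chd4, had 19 and 10 against 10, 18 and 11 UMIs. Zfp335, a factor needed in T cells and neural progenitors, had 34 and 29 against 23, 25 and 24, with every Sema3G library below the controls (log2 fold change -0.51, limma adjusted p = 0.329). Genes on the other strand overlap Zfp335 (Pcif1) and Zfp143 (1600010M07Rik), so the counts of both are uncertain.

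Further listed members act on RNA, ribosomes or proteins. Zfp598, the ubiquitin ligase that senses collided ribosomes, had 46 and 22 UMIs in the controls and 41, 41 and 35 after Sema3G. Zfp622, a factor of large ribosomal subunit maturation, had 61 and 67 against 67, 64 and 77. The double-stranded RNA-binding Zfp346 had 27 and 15 against 15, 16 and 10. Zfp326, which couples transcription and splicing, had 24 and 42 against 67, 72 and 58 UMIs, with the groups apart (log2 fold change 0.85, limma adjusted p = 0.111, and 0.0421 without PBS replicate 2). Zfp318, needed in B cells for IgD expression, had 49 and 61 against 57, 87 and 112. The SUMO ligase Zfp451 had 15 and 18 against 17, 31 and 25. The groups of the other 5 overlapped.

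Among KRAB proteins with known targets, Zfp809, which silences murine leukaemia virus proviruses, had 34 and 25 UMIs in the controls and 23, 23 and 27 after Sema3G, a log2 change of -0.39 (limma adjusted p = 0.461). Its groups lay apart on the CPM scale and overlapped after TMM scaling. Zfp568, which silences a placental promoter of Igf2, had 4 and 16 against 8, 15 and 14 UMIs, and Zfp746, a repressor of the PGC-1α gene, had 15 and 5 against 11, 13 and 14. Zfp932 had 3 and 4 against 5, 0 and 3 UMIs, too few to show any but a large difference. The 5 listed genes that were not members are not all KRAB proteins. Zfp57, the imprint keeper of early embryos, Zfp42, a pluripotency marker, Zfp423 and Zfp521 had 0 UMIs in every library, and Zfp827 had 3 UMIs in PBS replicate 2 alone. A count of 0 allows up to 1.35 to 1.67 CPM in a library.

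The other listed members include nuclear and nucleolar proteins and signalling partners. Zfp830, a factor of splicing and DNA repair, had 22 and 26 UMIs in the controls and 31, 37 and 45 after Sema3G, and the nucleolar Zfp330 had 21 and 17 against 29, 28 and 24. Zfp593, whose counts are uncertain because E130218I03Rik overlaps it on the other strand, had 24 and 12 against 9, 8 and 9. Zfp830 lay apart upwards (log2 fold change 0.45, limma adjusted p = 0.359) and Zfp593 downwards (-0.97, adjusted p = 0.188), while the groups of Zfp330 overlapped in CPM and lay apart after TMM scaling. Zfp608, the paralog of Zfp609, had 9 and 25 against 24, 37 and 60 UMIs (log2 fold change 1.07, limma adjusted p = 0.138, 0.0279 without PBS replicate 2), and its groups overlapped in CPM. Zfp110, a partner of the neurotrophin receptor p75, had 21 and 28 against 18, 29 and 26, with overlapping groups. Zfp280c had 4 and 3 against 6, 7 and 10 UMIs, with the groups apart (log2 fold change 0.69). Zfp322a had 28 and 42 against 33, 34 and 39, and Zfp664 had 19 and 48 against 41, 28 and 40, both with overlapping groups. The counts of Zfp322a are uncertain because 4930586N03Rik overlaps it on the other strand.

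Of 35 partners of KRAB silencing that were listed, 32 were tested, and 2 rose at an adjusted p below 0.05. Atrx, a remodeller that places histone H3.3 with Daxx, had 186 and 223 UMIs in the controls and 338, 510 and 608 after Sema3G, and rose from a mean of 110.8 ± 12.2 CPM to 232.8 ± 46.2 (log2 fold change 1.05, SE 0.20, limma adjusted p = 0.0114). Gatad2b, a subunit of the NuRD complex, had 20 and 34 against 51, 99 and 92 UMIs (1.35, SE 0.28, adjusted p = 0.0194). Both calls were lost without PBS replicate 1 (limma adjusted p = 0.0561 for Atrx and 0.111 for Gatad2b), without Sema3G replicate 2 (0.0812 and 0.151) and without Sema3G replicate 3 (0.110 and 0.129). The core pair of the pathway was not called. Trim28 stood at 61.6 ± 7.65 CPM with PBS and 51.4 ± 13.3 with Sema3G (-0.28, adjusted p = 0.479) and Setdb1 at 10.6 ± 2.11 and 9.09 ± 1.72 (-0.20, adjusted p = 0.753), both with overlapping groups. The median log2 fold change of the 32 was 0.011, against -0.22 for all genes. The groups lay apart upwards for 8 and downwards for 5, against 11.9% and 26.5% of all genes, and the share of all genes called higher was 1.59%. With TMM scaling 11 lay apart upwards and 2 downwards, against 17.4% and 15.7%.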

How the data were processed

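The authors mapped 3′ UMI reads of 5 samples to mm10 and deposited CPM values per gene, with p-values, q-values and ranks of their own comparison, which were not used. Per the submitters' processing notes edgeR 3.12 was used. Annotation, filter and strand setting: not given in the sources used here. All deposited CPM values were whole multiples of 1 UMI (within 0.01), so UMI counts were recovered. edgeR's quasi-likelihood test was planned for counts. Because CPM was deposited, the 10088 genes whose mean reached 1 CPM were fitted on log2(CPM + 1) in limma (3.58.1, under R 4.3.3, trend option on), p-values were adjusted after Benjamini and Hochberg, and the counts went through edgeR (4.0.16) and DESeq2 (1.42.0). Alternatives changed the pseudocount, filter, scaling, test and replicate block and left out each library. Fold changes on log2(CPM + 1) understate changes of rare genes. Intervals and limits of 3 counts cover counting error only. The fits were tested on simulated data.

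Gene models, transcripts and coordinates came from GENCODE M21 (GRCm38). Proteins were translated from its coding sequences, in place of the RefSeq proteins that had been planned, and searched for the C2H2 finger and KRAB-A core patterns. Named were members past the adjusted p, the 10 with the highest level, the 6 largest rises and falls among members with 30 UMIs or more and groups apart, those at the level limit, the listed roles, and KRAB partners that were called, with Trim28 and Setdb1. Members and lists were chosen with earlier results of these data known, and the GC and length classes, Zfp131, Zfp617, Zfp955b and Rn45s after values were seen. The closest libraries, Sema3G replicates 2 and 3, differed by more than sampling noise (chi-square per degree of freedom 1.77) and were counted separately. The other pairs had 6.57 to 29.6, so these 2 were far closer to each other than any other replicates, and whether they came from separate cultures is not given.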

Additional observations from a re-analysis of the deposited data

How the results depend on the processing

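The number of members called, 2, was 1 with a pseudocount of 0.1 and 1 with a minimum mean of 5 CPM, as Zfp553 was lost or left out. It was 6 with TMM factors, 8 with CPM taken over listed genes without Rn45s, 6 with edgeR and 3 with DESeq2, none of these lower. Over all genes, 160 were called higher and 22 lower, and the 182 became 120 and 5 with a pseudocount of 0.1, 151 and 21 with the 5 CPM minimum, 243 and 1 with DESeq2, 108 in all with no filter, 327 with TMM factors, 495 with CPM taken over listed genes without Rn45s and 304 with edgeR. With 1 library left out, members called ranged from 0 (without Sema3G replicate 2, and without Sema3G replicate 3) to 10 without Sema3G replicate 1, of which 6 were lower (270 higher and 440 lower over all genes), and were 3 without PBS replicate 1 and 4 without PBS replicate 2. All genes called were between 27 (without Sema3G replicate 2) and 710 (without Sema3G replicate 1), and were 32, 99 and 217 when Sema3G replicate 3, PBS replicate 1 or PBS replicate 2 was dropped. The members' median relative to all genes, 0.052, ranged from -0.008 to 0.12 and moved by less than its spread between libraries. The cause of these moves was not tested, except that fewer genes or libraries enter some fits.

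With the replicate block 9 members (7 higher, 2 lower) and 573 genes (298 higher, 275 lower) were called, from 1 residual degree of freedom over the replicates 1 and 2 in both groups. Same-numbered libraries had correlated deviations (0.173 and 0.111), but with 2 pairs and no label that ties them, the numbers do not pair the samples. With 2 controls the deviations of each mirror those of the other, so these values are not independent. PBS replicate 2 and Sema3G replicate 3, with unlike numbers, had 0.097. With 2 controls, and 63 members under 30 UMIs, the values of single members are imprecise. A control left alone is taken to vary as the Sema3G libraries do.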

Other observations

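The genes left out by the rule, named for a number but of another kind, encode the tristetraprolin family, which binds AU-rich elements and speeds the decay of cytokine mRNAs. Zfp36l2 had 22 and 26 UMIs in the controls and 49, 108 and 128 after Sema3G, with an increase past the limit (log2 fold change 1.65, limma adjusted p = 0.00691). It missed the limit without Sema3G replicate 2 (limma adjusted p = 0.0528) and without Sema3G replicate 3 (0.0727). Zfp36 had 127 and 126 against 89, 73 and 73 UMIs (-0.84, adjusted p = 0.0671), with every Sema3G library below both controls. Zfp36l1 had 269 and 417 against 368, 689 and 716 UMIs, with overlapping groups (0.60, adjusted p = 0.153), and Zfp36l3 had 0 UMIs.

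Of 67 genes in other zinc finger families, 0 passed the adjusted p in limma, 4 higher and 7 lower genes had an unadjusted p below 0.05, against 689 and 1436 of all 10088 genes. Both edgeR and limma with TMM scaling called 1 of them higher, against 2.98% and 3.21% of all genes. Their median log2 fold change was -0.11, and the groups lay apart upwards for 8 and downwards for 13, which is 11.9% and 19.4%, against 11.9% and 26.5% of all genes. With TMM scaling the order turned, to 11 upwards (16.4%) and 9 downwards (13.4%) with a median of 0.066. It turned for all genes too, with 17.4% upwards, 15.7% downwards and a median of -0.037. The 31 Zbtb genes, whose proteins join fingers to a BTB domain, had a median of -0.23, and the 15 Zc3h genes, most of them RNA-binding, had -0.0020. The 6 Zmym genes had 0.12.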
